A study of Mus musculus with 8 samples.

Results

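miR-802 is a liver microRNA (miRNA) made from a single hairpin, and both of its mature products, miR-802-5p and miR-802-3p, were followed through 8 small RNA libraries of mouse liver. These are 2 of the 862 small RNA names listed in at least 1 library, and both were listed in all 8. They were taken by name, after earlier results of these data had shown that they differed widely between the diets. Their diet values are therefore a description and carry no test. Male C57BL/6J mice, 8 weeks old at the start and housed singly, received either caloric restriction (CR) or food ad libitum (AL) for 12 weeks. CR food was cut by 20% for the first week and by 40% for the 11 weeks that followed. The libraries were 3 of CR mitochondria, 3 of AL mitochondria, 1 of CR whole liver and 1 of AL whole liver. Mitochondria were isolated by differential centrifugation and purified as mitoplasts, mitochondria stripped of their outer membrane. Each whole-liver library was a pool of 3 RNA samples, so it is 1 value per diet with no replicate. Nothing in the labels ties the mitochondrial replicates to separate animals, and any p-value measures the spread between these libraries, which may be technical.

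The deposited values are RPM, the reads of a name per 1000000 miRNA reads of its library. Every value was a whole multiple of the worth of 1 read in its library, which gave back the read numbers. The mitochondrial libraries held 1070762 to 1577691 reads, and the pools held 3242002 (CR) and 2431564 (AL). The hepatocyte miRNA list, with miR-122 as its best known member, took 541908 to 720536 RPM in CR mitochondria and 578472 to 627356 RPM in AL mitochondria. In the pools it took 565012 RPM (CR) and 476016 RPM (AL), so names of this list held a large part of the reads in all 8 libraries.

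A miRNA is cut from a hairpin precursor as a short duplex, 1 strand of which is loaded into an Argonaute protein and pairs with target mRNAs mainly through its seed, bases 2 to 8 from the 5′ end. miR-802 is known from the liver of obese mice, where its rise impairs glucose tolerance and insulin signalling. Both arms come from Mir802, so their levels can be compared as products of a single precursor. Their mature sequences, from RefSeq (GRCm38.p6) and identical to those given with the deposited values, are shown 5′ to 3′ with the seed in capitals, because the seeds set the arms apart from each other and from other miRNAs.
miR-802-5p: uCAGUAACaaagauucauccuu
miR-802-3p: aCGGAGAGucuuugucacucag
Among all mature mouse miRNAs in the RefSeq table, the seed of miR-802-5p was held by that name alone, and so was the seed of miR-802-3p. The RefSeq set used lacked some listed names, such as miR-30b-5p and miR-467e-5p, so a seed shared with a lacking name would be missed. The closest sequence among the other listed names differed from each arm in 7 bases (miR-222-5p for the 5p arm and an unannotated candidate for the 3p arm, allowing a shift of up to 2 bases). In the GENCODE M21 transcripts, each arm matched Mir802 and no other transcript on either strand. No near-identical relative was thus found among the listed sequences.

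The hairpin is shown with both arms in capitals, the 5p arm first, since the balance between the arms is reported further on.
Mir802 hairpin: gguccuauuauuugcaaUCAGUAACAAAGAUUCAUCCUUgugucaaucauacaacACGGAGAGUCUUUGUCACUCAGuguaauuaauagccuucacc
The hairpin of 97 bases lies on the plus strand of chromosome 16, at chr16:93369720-93369816 (GRCm38), outside every other annotated gene. The nearest gene on the same strand is the long non-coding RNA 1810044K17Rik, which ends 691 bases upstream. On the other strand 1810053B23Rik, also non-coding, lies 3052 bases away. The nearest annotated protein-coding gene is Setd4, at a distance of 213641 bases. In the minimum free energy fold from RNAfold (-30.8 kcal/mol), 16 base pairs joined the arms to each other, and 18 of the 22 bases of the 5p arm and 16 of the 22 bases of the 3p arm were paired. The loop side between the arms measured 16 bases.

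In liver mitochondria, both arms were higher under CR than under AL, and the libraries of the diets did not overlap for either arm. miR-802-5p had 419, 441 and 237 RPM in CR mitochondria replicates 1 to 3, against 124, 35.6 and 19.0 RPM in AL mitochondria replicates 1 to 3. The lowest CR library (replicate 3) stood 1.92-fold above the highest AL library (replicate 1). miR-802-3p, the less abundant arm, had 48.3, 26.0 and 52.3 RPM in CR mitochondria against 21.2, 8.22 and 2.11 RPM in AL mitochondria. Its lowest CR library (replicate 2) stood 1.22-fold above its highest AL library, again replicate 1, and the exact 95% Clopper-Pearson intervals of these libraries, 18.6 to 35.3 RPM and 13.5 to 31.9 RPM, overlapped. The separation of the 3p arm at that edge is therefore within counting error. These intervals cover counting error only, since PCR copies of 1 molecule cannot be told from separate molecules.

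The group means of miR-802-5p were 366 ± 112 RPM in CR mitochondria and 59.4 ± 56.3 RPM in AL mitochondria (SD, n = 3 each), a ratio of 6.15. For miR-802-3p they were 42.2 ± 14.2 RPM in CR mitochondria and 10.5 ± 9.77 RPM in AL mitochondria (SD, n = 3 each), a ratio of 4.01. On log2(RPM + 1), the scale used for all differences here, CR minus AL was 2.97 for the 5p arm and 2.27 for the 3p arm. The scale adds 1 RPM to each level and so understates the change of low names. The SD between replicates, pooled over the diets, was 1.01 for the 5p arm and 1.07 for the 3p arm. All CR libraries lay above all AL libraries for 5.04% of the 417 tested names (those reaching 1 RPM in 3 or more libraries), from which nothing is read here for the arms, since this contrast chose them. In such tissue-level libraries, fewer cells of a type and less RNA per cell cannot be told apart.

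The spread was unequal between the diets. The coefficient of variation of miR-802-5p was 30.6% in CR mitochondria and 94.7% in AL mitochondria. That of miR-802-3p was 33.6% in CR mitochondria and 92.8% in AL mitochondria. Within AL, the order of the libraries was the same for both arms, with replicate 1 highest and replicate 3 lowest. The highest AL library stood 6.52-fold above the lowest for miR-802-5p, with 134 and 27 reads. Within CR, the highest and lowest libraries differed 1.86-fold for the 5p arm and 2.01-fold for the 3p arm. Without AL replicate 1 the log2 differences were 3.71 (5p) and 2.95 (3p), and without AL replicate 3 they were 2.39 and 1.53.

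**Figure D1:**
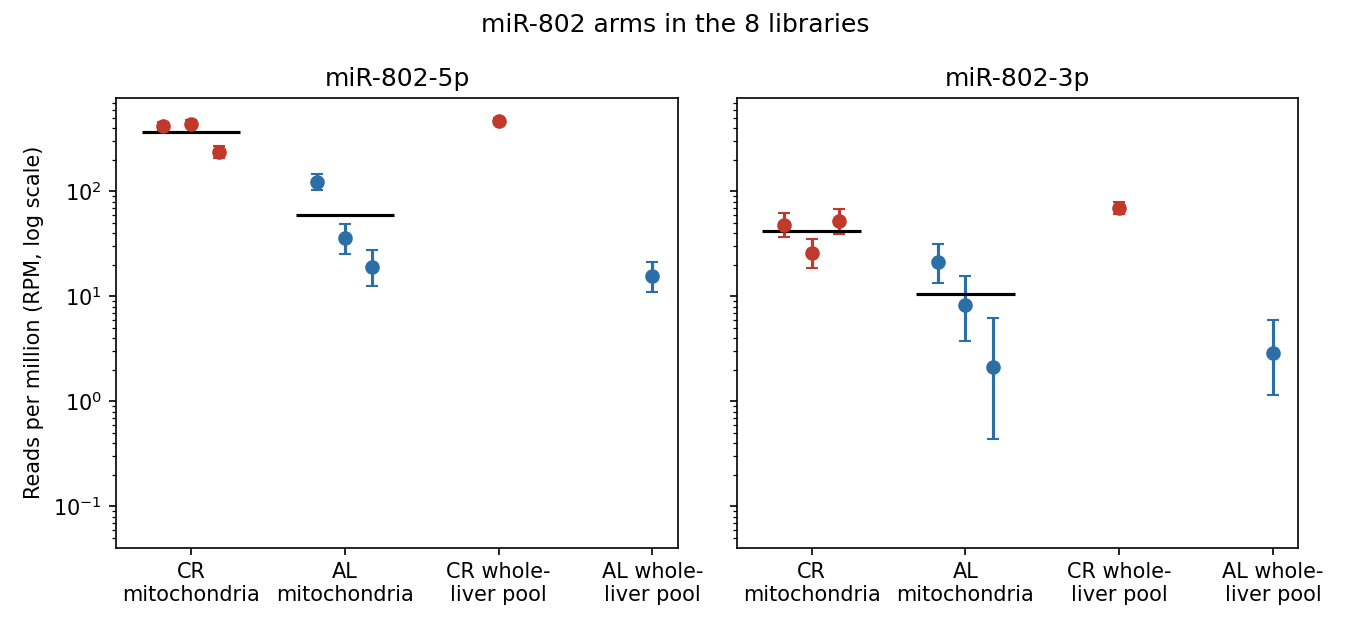
RPM of miR-802-5p (left) and miR-802-3p (right) on a log axis, by group. Points are libraries with exact 95% Clopper-Pearson intervals of counting error, and black lines are means of the 3 mitochondrial libraries. The CR mitochondrial libraries of the 5p arm lie between 237 and 441 RPM and the AL ones between 19.0 and 124 RPM.

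The whole-liver pools stood further apart than the means of the mitochondrial libraries. miR-802-5p was at 470 RPM in the CR pool (1525 reads) and 15.6 RPM in the AL pool (38 reads), 30.1-fold higher under CR with an exact 95% interval of 21.8 to 42.7. miR-802-3p was at 69.4 RPM in the CR pool (225 reads) and 2.88 RPM in the AL pool (7 reads), 24.1-fold higher with an interval of 11.5 to 60.7. The intervals of the arms overlap, so the pools do not show different folds for them. With 1 pool per diet these ratios compare a pair of libraries and have no replicate check. Single mitochondrial libraries could stand about as far apart. The highest CR library was 23.2-fold (5p) and 24.8-fold (3p) above the lowest AL library. At least 2-fold higher levels under CR, with 1 RPM added, were found for 4.12% of the 243 names with at least 10 RPM in a pool, and the arms were the first and second of these by size, as the choice of members implies. Next below them was miR-96-5p, a miRNA of sensory and epithelial cells, at 52.4 RPM in the CR pool and 17.7 RPM in the AL pool, 2.97-fold higher.

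Among the 417 names in mitochondria the arms also ranked first and second by the log2 difference, against a median of -0.17 over all names (quartiles -0.57 and 0.23). The third was miR-375-3p, a miRNA of pancreatic islets, at 1.98. Its level rested on 1 library, with 2, 100 and 4 reads in CR mitochondria and 2, 1 and 2 reads in AL mitochondria. In the pools the median log2 ratio over all names was -0.22 (quartiles -0.59 and 0.17), against 4.83 for the 5p arm and 4.18 for the 3p arm on the same scale. With DESeq2 size factors the median of all names in mitochondria was 0.03 and with TMM factors 0.12. The arms then stood at 3.21 (5p) and 2.50 (3p) with size factors, and at 3.31 and 2.59 with TMM.

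**Figure D2:**
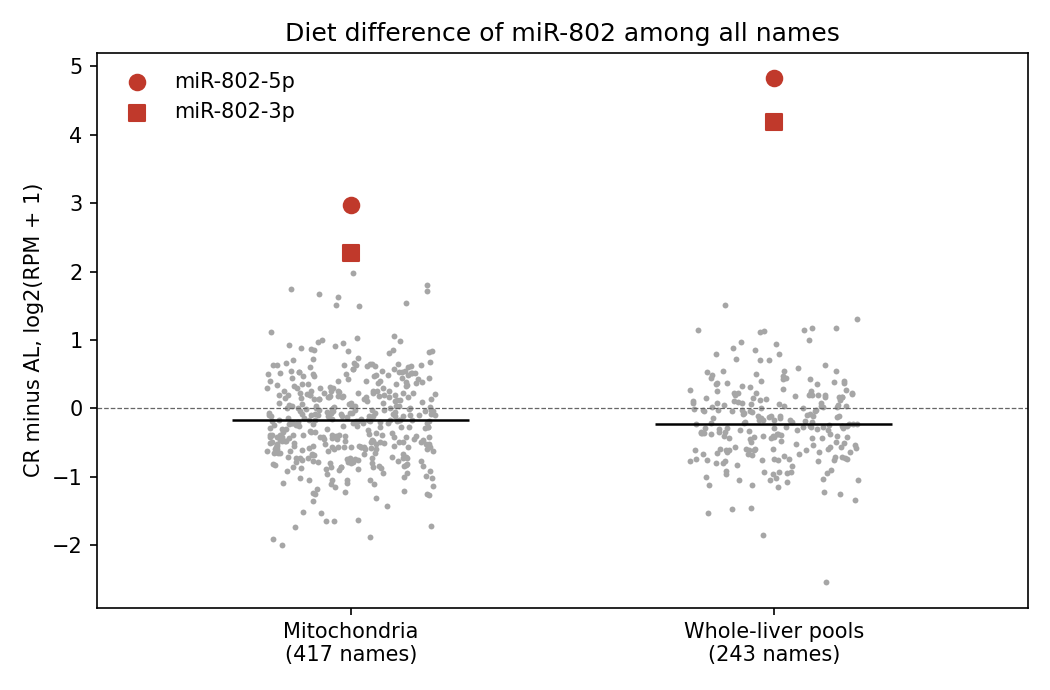
CR minus AL on log2(RPM + 1) for every name, in mitochondria (417 names, mean of 3 libraries per diet) and in the whole-liver pools (243 names, 1 library per diet). Grey points are single names with their median as a line, and red symbols are the miR-802 arms, at 2.97 and 2.27 in mitochondria and 4.83 and 4.18 in the pools.

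The position of miR-802-5p among the names of each library moved with its level. By RPM it ranked 53, 54 and 64 in CR mitochondria and 94, 146 and 179 in AL mitochondria, of 462 to 528 names listed in the CR libraries and 485 to 501 in the AL libraries. In the pools it ranked 62 of 604 names (CR) and 202 of 597 names (AL). A ratio within each library needs no scaling between libraries. Per 1000 reads of the hepatocyte list, miR-802-5p had 0.599, 0.814 and 0.329 reads in CR mitochondria, against 0.214, 0.0577 and 0.0303 reads in AL mitochondria. On that ratio, too, all CR libraries lay above all AL libraries, and the pools stood at 0.833 (CR) and 0.0328 (AL) reads. miR-802-3p had 0.0691, 0.0480 and 0.0726 reads per 1000 in CR mitochondria and 0.0367, 0.0133 and 0.00336 in AL mitochondria. Its pools stood at 0.123 (CR) and 0.00605 (AL).

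Both arms of miR-802 were at least 2-fold higher under CR in mitochondria and in the pools. Of 110 other hairpins with both arms tested, 0 had both arms at least 2-fold higher under CR in mitochondria on log2(RPM + 1). Of the 54 whose arms both reached 10 RPM in a pool, 0 had both arms at least 2-fold higher in the CR pool, and without that minimum 2 of the 110 did. The next hairpin by its less changed arm was miR-31 in mitochondria, at 0.72 for the 5p arm and 1.72 for the 3p arm. The gap between the arms in the mitochondrial diet difference was 0.71 for miR-802, against a median of 0.49 (quartiles 0.26 and 0.81) over the others. The gap of miR-802 thus lay between the quartiles of the others. These counts describe the libraries and carry no test, since the members were picked on this contrast.

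**Figure D3:**
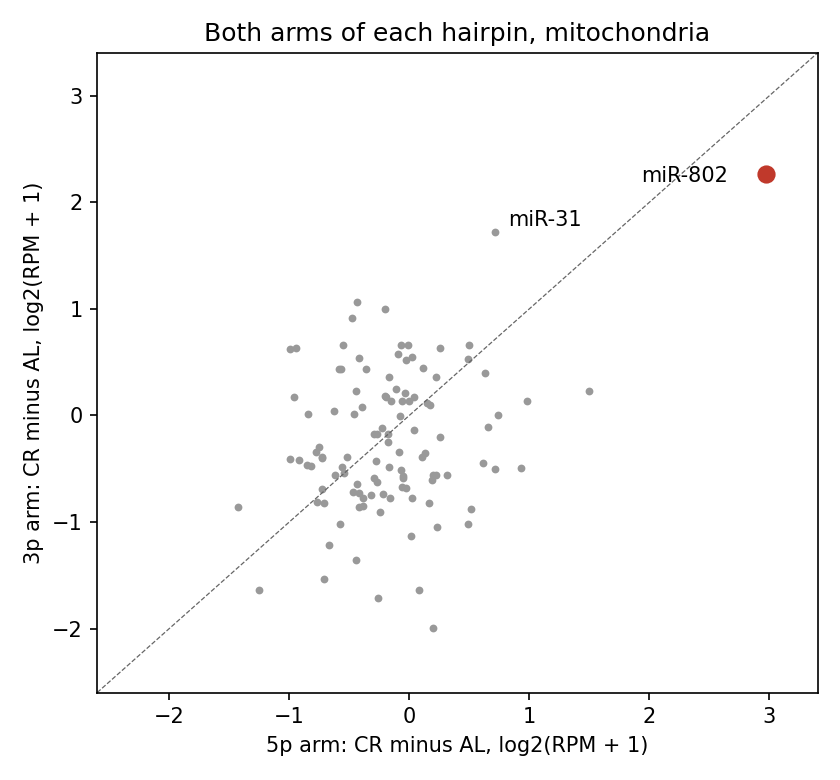
CR minus AL in mitochondria on log2(RPM + 1) for the 5p arm (horizontal) and 3p arm (vertical) of 111 hairpins, with equality as a dashed line. miR-802 lies apart from the rest at 2.97 and 2.27, and the next, miR-31, lies at 0.72 and 1.72.

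The arm balance is a measure that the choice of members did not use when mitochondria are set against whole liver. The 5p arm held most reads in every library. The 3p arm took 10.3%, 5.56% and 18.1% of the miR-802 reads in CR mitochondria and 14.6%, 18.8% and 10% in AL mitochondria. In the pools it took 12.9% (CR) and 15.6% (AL). CR replicate 2 was lowest, with an exact 95% interval of 4.02% to 7.47% over 737 reads, which lay below the intervals of CR replicate 1 (7.94% to 13.2%), CR replicate 3 (13.9% to 22.8%) and the CR pool (11.3% to 14.5%). In that library the 5p arm was at its highest level among the mitochondrial libraries, and the 3p arm at its lowest among those of CR. The AL intervals were wide, from 2.11% to 26.5% for replicate 3 with 30 reads. They overlapped each other and those of all CR libraries, except that the intervals of AL replicates 1 and 2 lay above that of CR replicate 2.

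The mean 3p share was 12.9% ± 5.15 (SD, n = 6) in mitochondria and 14.2% over the 2 pools. With the pool label moved among the libraries of each diet, the mean difference of -1.31 percentage points gave p = 0.75 (exact permutation test, two-sided). The 16 arrangements cannot give a p below 0.0625, so the test cannot show a difference or its absence. The difference was 0.13 points with CR replicate 2 left out. Between the diets the 3p share averaged 11.3% ± 6.31 in CR mitochondria and 14.5% ± 4.38 in AL mitochondria (SD, n = 3 each), with overlapping libraries. The diet comparison of the share was not tested.

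**Figure D4:**
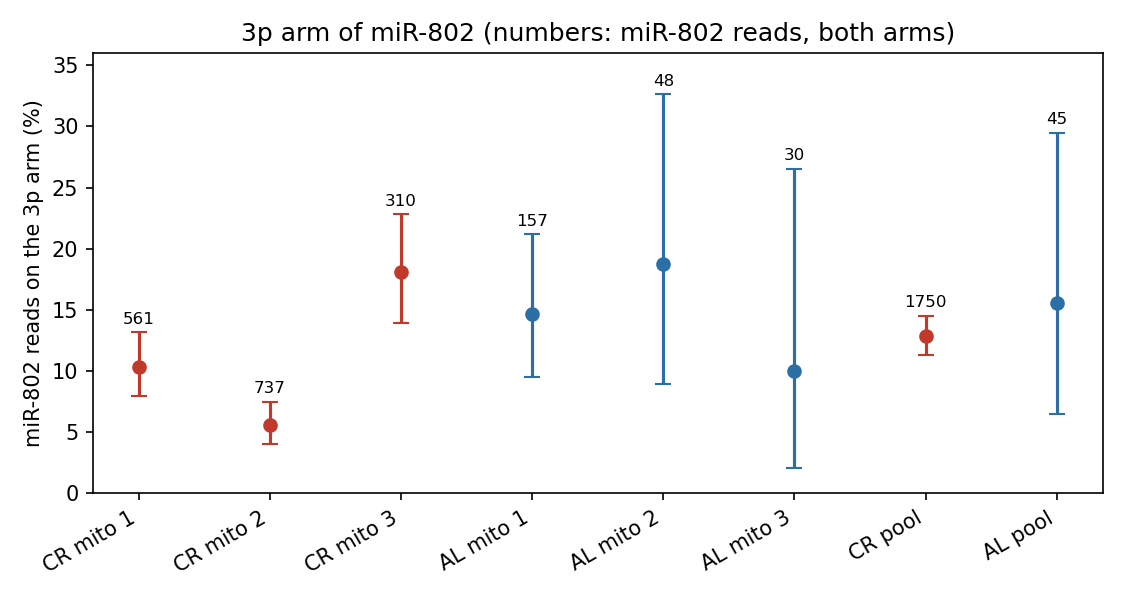
Percent of miR-802 reads on the 3p arm in each library (points) with exact 95% Clopper-Pearson intervals; the number over each bar is the miR-802 reads of both arms. The CR mitochondrial libraries run from 5.56% to 18.1% and the AL ones from 10% to 18.8%.

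Whether miR-802 is richer in mitochondria than in the tissue was asked with all 8 libraries, diet being a term of the fit. Neither arm passed. By limma-trend the mitochondria minus whole liver difference was 0.51 for miR-802-5p (SE 0.54, adjusted p = 0.478) and 0.19 for miR-802-3p (SE 0.60, adjusted p = 0.814), both on log2(RPM + 1) and adjusted over 417 names. In this comparison 32.1% of the names passed, 10.6% higher and 21.6% lower in mitochondria, with a median of -0.31 over all names. The fit takes the pools to vary like the mitochondrial libraries.

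The single value for both diets covers values that ran in opposite directions. Under CR, all 3 mitochondrial libraries of miR-802-5p (237 to 441 RPM) lay below the pool (470 RPM), with a mean ratio of 0.778. The counting intervals of CR replicates 1 and 2 (383 to 457 and 409 to 475 RPM) overlapped that of the pool (447 to 495 RPM), and that of replicate 3 (209 to 268 RPM) did not. Under AL, all 3 mitochondrial libraries (19.0 to 124 RPM) lay above the pool (15.6 RPM), with a mean ratio of 3.80. There the interval of replicate 3 (12.5 to 27.6 RPM) overlapped that of the pool (11.1 to 21.5 RPM), and those of the other replicates did not. On log2(RPM + 1) the mitochondria minus pool difference was -0.41 under CR and 1.44 under AL. For miR-802-3p it was -0.77 under CR, with 0 of 3 mitochondrial libraries above the pool, and 1.15 under AL, with 2 of 3 above. The fitted difference turned negative, at -0.41 for the 5p arm and -0.77 for the 3p arm, once the AL pool was left out. The 3p difference was also negative without AL mitochondria replicate 1, at -0.19. Whether the diet difference itself was unequal in mitochondria and whole liver was not tested, because the diet values had chosen the members.

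Ordered by level, miR-802-5p was highest in the CR pool, followed by CR mitochondria, AL mitochondria and the AL pool. The first and second of these were not separated beyond their spread, since the CR pool lay within 1 SD of the CR mitochondrial mean. The AL pool lay within 1 SD of the AL mitochondrial mean in RPM but not on log2(RPM + 1), where it stood 1.44 below a mean with an SD of 1.35. miR-802-3p followed the same order of groups, but its CR pool lay more than 1 SD above its CR mitochondrial mean.

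The names whose levels followed miR-802-5p most closely were found by Pearson's r of log2(RPM + 1) over the 8 libraries, a description of libraries that share their scaling and diet. The other arm came first (r = 0.95 over 8 libraries and 0.92 over the 6 mitochondrial ones). Next came miR-467e-5p (0.89), which had at most 8 reads in any library and belongs to a family of near-identical names, so its value is uncertain. miR-210-3p, induced by hypoxia, had r = 0.84, and miR-31-3p, the 3p arm of an epithelial miRNA, had r = 0.80. miR-30b-5p, a member of the abundant miR-30 family, had r = 0.70, and the unannotated candidate novel_226, with at most 23 reads, had r = 0.69. Each r includes the diet gap on which the arms were chosen. Within CR mitochondria the arms did not rise together. Replicate 3 was the lowest CR library for miR-802-5p (237 RPM) and the highest for miR-802-3p (52.3 RPM).

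The sequences of the best covered of these with an entry in the RefSeq set used are shown, seed in capitals. They are for comparison with the miR-802 seeds, which they do not share.
miR-210-3p: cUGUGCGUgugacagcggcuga
miR-31-3p: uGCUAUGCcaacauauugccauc
They lie on chromosomes 7 (Mir210, at chr7:141221407-141221428) and 4 (Mir31, at chr4:88910577-88910599), both on the minus strand of GRCm38. miR-31-3p had 33.3, 38.0 and 25.2 RPM in CR mitochondria, against 11.1, 9.13 and 7.03 RPM in AL mitochondria. All CR libraries lay above all AL libraries, as for 5.04% of the 417 tested names. The mitochondrial values followed those of miR-802-5p (r = 0.96 over 6). miR-31-3p was picked for its likeness to an arm chosen on diet, so both traits are partly implied by that choice. In the pools it was low in both, at 9.87 RPM (CR) and 4.94 RPM (AL). miR-210-3p had 26.6, 27.9 and 23.3 RPM in CR mitochondria and 36.9, 13.7 and 12.0 RPM in AL mitochondria, where AL replicate 1 was the highest of the 6. AL replicate 1 was also the AL library with the most miR-802.

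The opposite pattern was closest in miR-320-3p (r = -0.90), a miRNA made without the nuclear enzyme Drosha. It was followed by miR-7a-1-3p (-0.86), with only 3 to 22 reads per library, and miR-214-3p (-0.83), a miRNA of fibroblasts. miR-320-3p had 80.8, 78.0 and 98.1 RPM in CR mitochondria, against 119, 193 and 136 RPM in AL mitochondria. Its pools stood at 72.5 RPM (CR) and 151 RPM (AL). The groups did not overlap, and the range of these values was far narrower than that of miR-802-5p. The share of all names with every CR library below every AL library was not counted, here or for the sums below.

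**Figure D5:**
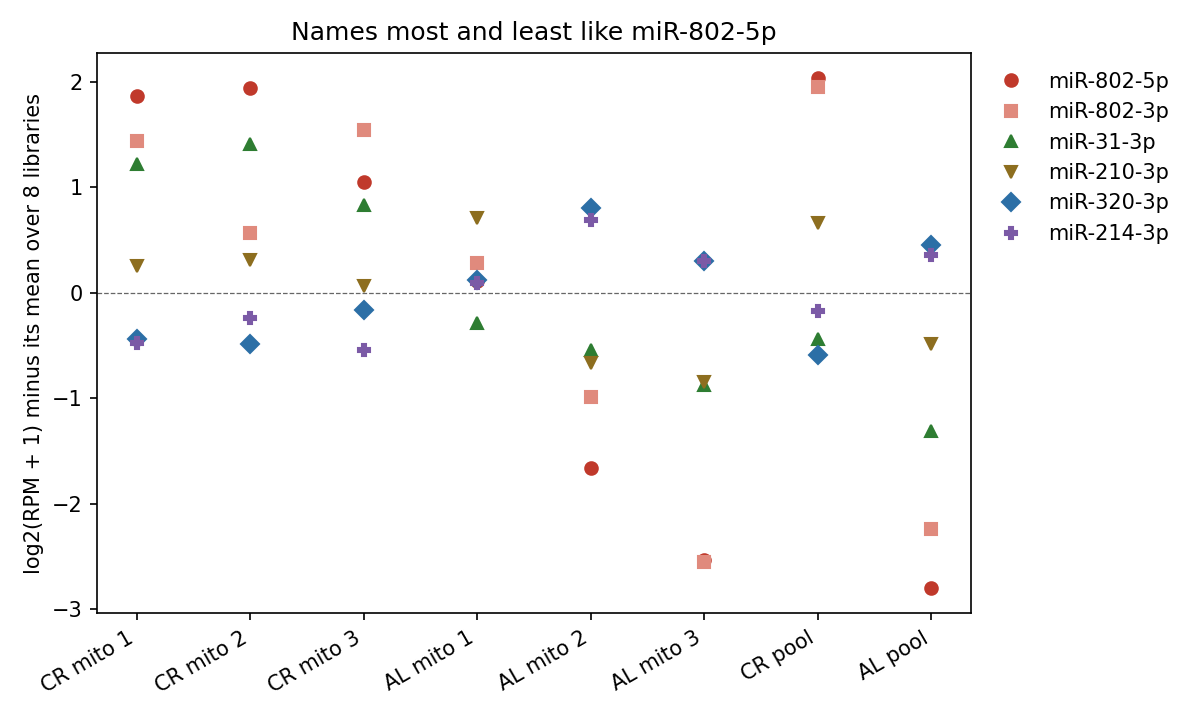
log2(RPM + 1) minus its mean over the 8 libraries for both miR-802 arms, for miR-31-3p and miR-210-3p, which followed miR-802-5p (r = 0.80 and 0.84), and for miR-320-3p and miR-214-3p, which ran against it (r = -0.90 and -0.83). The miR-802 arms span the widest range of the names plotted.

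Other miRNAs known to act on glucose and lipid metabolism in the liver were also tested for diet. Of 20 such miRNAs, 39 names were tested in mitochondria, with 0 higher and 0 lower by limma-trend, and 0 by edgeR or DESeq2. The limma fit passed 0.48% of all 417 names, edgeR passed 2.4% and DESeq2 called 9 names. At such low shares, 0 of 39 says little about the list. The names passed by limma were miR-199a-3p and miR-802-5p. The call of miR-802-5p is no test because it was chosen on this contrast. At an unadjusted p under 0.05 were 3 of the 39, against 12.7% of all names. The list's median CR minus AL was -0.12 on log2(RPM + 1), beside -0.17 for all names, and its members ran from -1.30 to 0.92. In the pools its median log2 ratio was 0.04, with a range from -1.53 to 1.17. The 4 most abundant members did not pass in mitochondria. miR-122-5p, which sustains hepatic lipid synthesis, stood at 0.04 (SE 0.52), miR-148a-3p, which represses the LDL receptor, at 0.23 (SE 0.46), miR-21a-5p at -0.48 (SE 0.43) and miR-143-3p, raised in obese liver like miR-802, at -0.39 (SE 0.40). In the pools, miR-21a-5p was at 94378 RPM (CR) and 190493 RPM (AL), a log2 ratio of -1.01, and miR-148a-3p at 199930 RPM (CR) and 108300 RPM (AL), a ratio of 0.88. The pool ratios of miR-122-5p and miR-143-3p were 0.05 and 0.16 on that scale.

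The 3 list members with an unadjusted p under 0.05, named after their values were seen, were lower under CR. miR-34a-5p, a p53 target that represses Sirt1 and is also raised in obese liver, averaged 33.4 ± 5.65 RPM in CR mitochondria and 87.4 ± 35.4 RPM in AL mitochondria (SD, n = 3 each; log2 difference -1.30, adjusted p = 0.110 by limma). The pools showed the same direction, 20.7 RPM under CR and 61.7 RPM under AL. miR-185-5p, a repressor of the cholesterol regulator SREBP2, averaged 307 RPM in CR mitochondria and 602 RPM in AL mitochondria (-0.99, adjusted p = 0.167 by limma), but its pool ratio was 0.20 on the log2 scale. miR-181a-5p averaged 94.8 RPM in CR mitochondria and 157 RPM in AL mitochondria (-0.71, adjusted p = 0.381 by limma), with pools at 288 RPM (CR) and 305 RPM (AL).

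The miRNAs whose human counterparts lie with MIR802 on chromosome 21 (let-7c, miR-99a, miR-125b and miR-155) were tested likewise. The list took every arm with these names, so it also held miR-125b-1-3p (0.30 in mitochondria). That arm comes from a miR-125b hairpin whose human counterpart lies on another chromosome. Of 8 names tested, 0 passed by limma-trend, edgeR or DESeq2, which at the low shares over all names says little about the list. Before adjustment, 2 of the 8 had a limma p under 0.05, let-7c-5p and let-7c-1-3p, against 12.7% of all names. The summed level of the list was 3096 to 3537 RPM in CR mitochondria, below the 4787 to 6235 RPM in AL mitochondria, with pools at 11554 RPM (CR) and 12961 RPM (AL). The median of the list was -0.62 in mitochondria, beside -0.17 for all names, and -0.41 in the pools. let-7c-5p averaged 2040 RPM in CR mitochondria and 3804 RPM in AL mitochondria (-0.88, adjusted p = 0.236 by limma), with pools at 5266 RPM (CR) and 4993 RPM (AL). The other abundant members, miR-99a-5p, miR-125b-5p and miR-125b-2-3p, stood at -0.32, -0.64 and -0.59 in mitochondria. let-7c-5p and miR-125b-5p are each made from more than 1 hairpin, so their reads do not come from this region alone.

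Markers of other cell types were summed per library beside these values. The pancreas list (6 names listed) took 2.50, 98.9 and 4.67 RPM in CR mitochondria and 4.62, 5.48 and 2.11 RPM in AL mitochondria. In the pools it took 2.78 RPM (CR) and 7.81 RPM (AL). It was raised in CR replicate 2 alone, through miR-375-3p (100 reads) and miR-217-5p (52 reads), while miR-216b-3p and miR-216c-5p had 0 reads there. Of its 2 tested names 0 passed by limma, against 0.48% of all names, with 1 at an unadjusted p under 0.05, against 12.7%. edgeR called both, against 2.4% of all names, the miR-802 arms included. With that library left out, the CR minus AL difference was 2.81 for miR-802-5p and 2.57 for miR-802-3p. The summed level of the leukocyte and Kupffer cell list (10 names) did not overlap between the diets in mitochondria. How often this holds over all names in that direction was not counted. It was 2962 to 4842 RPM in CR mitochondria, below the 8035 to 11013 RPM in AL mitochondria, and 714 RPM in the CR pool and 1033 RPM in the AL pool. This sum was mostly miR-146a-5p, a brake on NF-kappaB signalling, at 3600 ± 946 RPM in CR mitochondria and 9595 ± 1726 RPM in AL mitochondria (SD, n = 3 each; log2 difference -1.43, adjusted p = 0.0729 by limma). Of the 8 tested names of that list 0 passed by limma, against 0.48% of all names. At an unadjusted p under 0.05 were 3 of them, miR-146a-5p, miR-142a-5p and miR-150-5p, against 12.7% of all names. miR-142a-5p averaged 84.7 RPM in CR mitochondria and 171 RPM in AL mitochondria (-0.92, adjusted p = 0.322 by limma). DESeq2 (9 names called in all) and limma with a replicate block (5 names called in all) called miR-146a-5p. The lymphocyte miRNA miR-150-5p ran the other way, at 39.6 RPM in CR mitochondria and 16.2 RPM in AL mitochondria (1.02, adjusted p = 0.375 by limma). In the stellate cell list (8 names), 1 of 8 names was called, against 0.48% of all names. This was miR-199a-3p, a miRNA of mesenchymal cells, at 602 ± 77.0 RPM in CR mitochondria and 1889 ± 351 RPM in AL mitochondria (SD, n = 3 each, log2 difference -1.64, adjusted p = 0.0124 by limma). Its pools were closer, at 1089 RPM (CR) and 1288 RPM (AL), a log2 ratio of -0.24. That call was lost without CR replicate 1, 2 or 3 and without AL replicate 2 or 3. miR-199a-5p stood at -1.25 (adjusted p = 0.0732 by limma), and DESeq2 and limma with a replicate block called it. The summed level of the list, mostly miR-143-3p, was 25647 to 44644 RPM in CR mitochondria and 35592 to 47440 RPM in AL mitochondria, with pools at 15853 RPM (CR) and 14666 RPM (AL). Of the 9 tested names of the epithelial list 0 passed by limma, against 0.48% of all names. An unadjusted p under 0.05 was found for 2 of them, against 12.7% of all names. Their CR minus AL differences were all positive in mitochondria (0.22 to 1.72) but ran from -0.75 to 1.14 in the pools. miR-31-3p was highest in mitochondria, at an adjusted p of 0.0729 by limma, and edgeR and DESeq2 called it. The part of the leukocyte, stellate cell and epithelial miRNAs in the miR-802 difference was not tested. The sums of the epithelial (10 names, 414 to 640 RPM under CR and 300 to 547 RPM under AL), erythroid (5 names, 56.0 to 98.3 and 55.5 to 94.98 RPM) and endothelial lists (2 names, 6707 to 18066 and 6694 to 9437 RPM) overlapped between the diets in mitochondria.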

How the data were processed

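Small RNA libraries of 3 CR and 3 AL mitochondrial preparations and of 1 pooled CR and 1 pooled AL whole liver were used, grouped by the labels. The authors deposited 1 table per library with RPM values under a column named tpm. The deposited values sum to 1000000 and carry no scaling for length, and a name missing from a table was set to 0. Reads were mapped with Bowtie against mm9, per the submitters' processing notes, with no version, while miRNA annotation, mismatches and the treatment of multiple hits are not given in the sources used here. All values (100%) were whole multiples of the worth of 1 read within 0.01 read, which gave the reads.

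Members and lists were chosen with earlier results of these data known. limma-trend (limma 3.58.1, R 4.3.3) was fitted on log2(RPM + 1) for the 417 names that reached 1 RPM in 3 or more libraries, and p-values were adjusted by Benjamini-Hochberg (called at 0.05). On recovered reads, edgeR 4.0.16 (quasi-likelihood test) and DESeq2 1.42.0 were run; these, other scalings, pseudocounts, no filter, a replicate block and left-out libraries were the alternatives. The arm share was tested by exact permutation (Python 3.11.15, scipy 1.17.1). Hairpins were folded with RNAfold 2.7.2, and coordinates are of GRCm38, not of the authors' mm9 alignment. Named were both arms, the 5 names most and 3 least like miR-802-5p, members of the glucose and lipid, chromosome 21 and pancreas lists that passed or ranked in the first 4 by mean RPM, and the next name in the pools. Others were named after their values were seen. A level of 3 reads was worth 0.925 to 2.80 RPM.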

Additional observations from a re-analysis of the deposited data

Results flagged for a closer look

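The level of miR-802-5p in mitochondria relative to whole liver ran in opposite directions under the diets. All 3 CR mitochondrial libraries lay below the CR pool (log2 difference -0.41), and all 3 AL mitochondrial libraries lay above the AL pool (1.44), a CR minus AL gap of -1.85. This difference was not tested, and each direction rests on a single pool.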

How the results depend on the processing

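The CR minus AL differences of the miR-802 arms kept their sign in every alternative run. In mitochondria, leaving out a library or changing the pseudocount could not reverse it, since all CR libraries lay above all AL libraries. The kept sign is thus no support for a difference that had chosen the members. In mitochondria the differences ranged from 2.39 to 3.71 (5p) and from 1.53 to 2.95 (3p) over 13 alternatives each. Both extremes came from leaving out a single AL library. In the pools the 5p log2 ratio ranged from 4.53 to 5.11, and the 3p ratio was 3.24 with a pseudocount of 5 RPM, below the counting interval, since the AL pool held 7 reads of it. The mitochondria minus whole liver difference passed in none of 16 alternatives (adjusted p from 0.141 to 0.826 for 5p and from 0.388 to 0.953 for 3p). Leaving out single mitochondrial libraries gave 0.11 to 0.73 (5p) and -0.19 to 0.48 (3p). Without the AL pool the values were -0.41 and -0.77, a check chosen after seeing the data, as were those without the CR pool (1.44 and 1.15) and per hepatocyte-list read. The arm share difference ranged from -2.998 to 0.13 points when single libraries were left out (exact permutation p from 0.417 to 1). The 2 names called by diet in mitochondria became 5 with DESeq2 size factors or TMM factors, 4 with miR-122 left out, 6 with no filter, 10 with edgeR, 9 with DESeq2, and 0 to 5 without single libraries; neither list gained a call in any of 15 alternatives. The replicate block gave 5 calls. Its miR-802 differences of 2.97 and 2.27 were the same by construction, since every block holds a library of each diet. Libraries sharing a number did not all deviate together (correlations of 0.36, 0.0862 and 0.10), and CR replicate 3 correlated best with AL replicate 2 (0.20), so the numbers are not taken as pairs. Depth limits the 3p arm most, with 3 to 23 reads in AL mitochondria.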
